A study of Mus musculus with 13 samples.

Results

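The pancreas of old mice that had gone through a short period of reprogramming was compared with the pancreas of untreated old mice, across all genes of one RNA sequencing table. The members were chosen by the condition in the sample labels and not by any measured value: 4 mice labelled as treated with OSKM (called old-OSKM here) and 5 mice labelled as old and untreated, 9 of the 13 mice of the series. The remaining 4 were young mice, which entered the statistical fit for its estimate of spread and are shown beside the others. All were females of the i4F-B strain, in which a single cassette of the reprogramming factors Oct4, Sox2, Klf4 and Myc (OSKM) sits within the Pparg gene and is switched on by doxycycline. According to the labels and the study's methods the old-OSKM mice started treatment at 55 weeks, drank doxycycline for 7 days, recovered for 2 weeks without it and were sampled at 58 weeks. The untreated old mice were sampled at 55 weeks, and the young mice at 13 weeks, none of them with doxycycline. All mice carried the cassette, untreated ones included. Its activation, the drug itself with the sucrose it was given in, and age at sampling therefore differed between both old groups at once and cannot be told apart. The study describes the cassette as broadly expressed in acinar cells, with most endocrine cells not expressing it.

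One library per mouse was made from pancreas RNA depleted of rRNA. The values are log2 RPKM (log2 of estimated reads scaled to transcript length and to the library's reads) for 23366 genes. Their sorted values differed by at most 0.0116 between mice because the authors quantile normalized them. No counts were given, so the depth behind each value is unknown. Emphasis is on the 8410 genes (36% of all) whose mean log2 RPKM over the 13 mice lay above 0, called expressed genes below. That mean includes the old-OSKM mice, so a gene near 0 can pass only through the group in which it is high. Counts of positive members in a list can depend on this, which was not tested. A difference is the old-OSKM mean minus the old mean of these log2 values. Genes with a fold change over 1.5 and an unadjusted (raw) p under 0.01 in limma are termed called, and adjusted p-values are Benjamini-Hochberg values over all 23366 genes.

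Doxycycline-driven OSKM expression pushes differentiated cells towards a pluripotent state, and when it is stopped early the cells can return to their former identity. The exocrine pancreas consists mostly of acinar cells, which make digestive enzymes, with ducts, islets of hormone-producing cells, vessels, resident macrophages and a thin framework of fibroblasts and stellate cells. Those stromal cells make the collagens and other matrix proteins of the organ, and macrophages carry complement C1q and MHC class II genes. Interferon-stimulated genes can be induced in almost any cell type.

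Old-OSKM mice 1 and 4 stood apart from the old mice and from old-OSKM mice 2 and 3 before any list was considered. Against the mean of the old mice, 147 expressed genes (1.75%) in old-OSKM mouse 1 and 518 (6.16%) in old-OSKM mouse 4 differed more than 2-fold. In old-OSKM mice 2 and 3 the numbers were 7 and 17, no more than the 7 to 17 genes by which single old mice differed from the mean of the other old mice. In untreated young mice 1 to 4 they were 22, 39, 25 and 123 (1.46%), so young mouse 4 came near old-OSKM mouse 1. The main results below are given also without old-OSKM mice 1 and 4. That alternative was chosen once the data had been seen, and it leaves 2 old-OSKM against 5 old mice. The tissue label held in every mouse, since the summed RPKM of the 33 acinar markers was at least 20554 in each. All 33 also counted as expressed, which rests on the mean over all mice and not on single mice. Among the untreated young mice, mouse 3 also had liver markers at a summed RPKM of 152, against 8.84 to 20.7 in every other mouse. It entered the fit and the young means, and its part in them was not tested beyond the count of called genes without it given below. The summed RPKM of the acinar markers was 23268, 23379, 23454 and 20554 in old-OSKM mice 1 to 4 and between 23048 and 23359 in the old mice. Old-OSKM mouse 4 was the lowest of the 9 mice in acinar markers. It was the highest in beta cell markers (476 against 186 to 392 in old mice), endothelial markers (54.6 against 23.2 to 28.3), fibroblast and stellate markers (147 against 43.0 to 54.7), and erythroid and blood genes (108 against 43.6 to 57.6). Old-OSKM mouse 1 was the highest in macrophage markers (109 against 24.5 to 41.1) and T cell markers (14.2 against 4.92 to 6.76), and the lowest in beta cell markers (99.0). Mouse 4 differed in more than cell type markers. Circadian clock genes summed to 78.7 in it, against 25.9, 29.3 and 33.7 in old-OSKM mice 1 to 3. Their sum was 30.8 to 33.0 in old mice and 28.3 to 49.9 in young mice. None of the 13 expressed clock genes had a raw p under 0.05 between the groups.

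**Figure D1:**
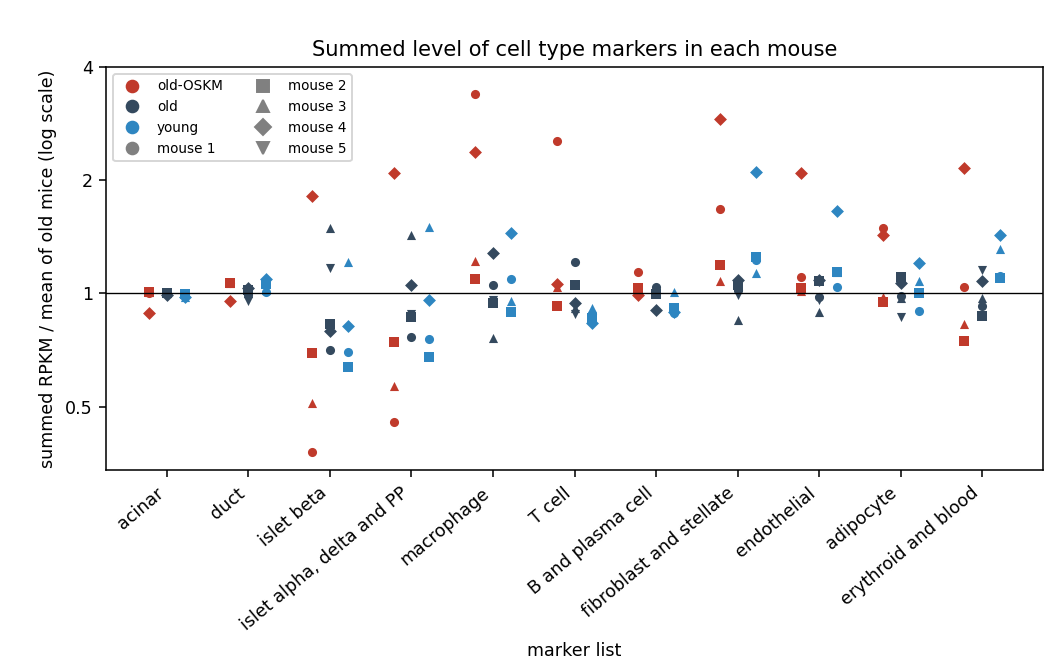
Summed RPKM of each cell type marker list in each of the 13 mice, divided by the mean of the 5 old mice, on a log axis, with one point per mouse and colours for the groups. The macrophage sums of old-OSKM mice 1 (109) and 4 (76.6) lie far above those of mice 2 and 3. The endothelial sum of old-OSKM mouse 4 (54.6) lies far above the other old-OSKM mice, while acinar sums stay between 20554 and 23454.

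No factor of the cassette passed the test with all mice 2 weeks after doxycycline was withdrawn. The counting assigned reads to genes, so reads from the cassette and from the mouse's own genes were not separated. Klf4 had log2 RPKM values of 0.13, 0.43, -0.07 and 1.04 in old-OSKM mice 1 to 4 and 0.13, 0.57, 0.48, 0.25 and 0.29 in old mice 1 to 5. Myc had 2.01, 2.64, 1.91 and 2.69 in the old-OSKM mice and 2.25, 2.77, 2.88, 2.06 and 2.21 in the old mice. The values of both groups overlapped for each (limma adjusted p = 0.93 for Klf4 and adjusted p = 0.799 for Myc). Pou5f1, which encodes Oct4, differed by 0.10 (standard error 0.29) and Sox2 by 0.06 (standard error 0.38), both at low levels and with overlapping values. For Pou5f1 the values were -0.61, -0.71, -2.06 and -0.80 against -1.38, -1.30, -1.06, -0.87 and -1.10: mice 1, 2 and 4 lay above every old mouse and mouse 3 below all of them. Without mouse 3 its difference was 0.44 (raw p under 0.05). Pparg, the gene that carries the insertion, differed by -0.23 (standard error 0.17, raw p not under 0.05 in limma). Without old-OSKM mice 1 and 4 the differences were -0.16 for Klf4, -0.16 for Myc, -0.24 for Pou5f1 and 0.18 for Sox2, and none of the 4 had a raw p under 0.05.

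Across all genes, 176 of 23366 (0.753%) were called, 136 higher (0.582%) and 40 lower (0.171%) in old-OSKM mice. Among expressed genes 23 of 8410 (0.273%) were called, 22 higher (0.262%) and 1 lower (0.0119%). With the mean z-score of each mouse over all genes as a covariate, 4 expressed genes were called, 1 higher and 3 lower, and 2 were called, both higher, when a pseudocount of 1 preceded the logarithm. The 22 included the collagen genes Col1a1, Col1a2, Col14a1 and Col15a1, fibronectin (Fn1), the complement gene C1qc and the interferon-stimulated Ifi27l2a, and the gene called lower was Snora81, a small nucleolar RNA. Of the 22 higher genes, 8 are in the lists of collagens, matrix or fibroblast genes and 1 is in the macrophage and complement lists. Their differences ran from 0.59 to 1.04 with a median of 0.77, against a median of -0.03 over all expressed genes, of which 39.6% had a positive difference. In 14 of the 22 every old-OSKM value lay above every old value, which held for 73 expressed genes in all (0.868%), while 104 (1.24%) had every old-OSKM value below every old value.

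None of the 23 expressed genes passed Benjamini-Hochberg adjustment: each had an adjusted p of 0.547 in limma, the lowest value that any expressed gene reached. Over all genes 1 of 23366 (0.00428%) had an adjusted p under 0.05, and 1885 (8.07%) had a raw p under 0.05, 931 higher (3.98%) and 954 lower (4.08%). At the same raw p there were 688 expressed genes (8.18%), 295 higher (3.51%) and 393 lower (4.67%). Under a raw p of 0.01 without a fold limit, 200 genes were higher (0.856%) and 122 lower (0.522%) over all genes, and 50 (0.595%) and 43 (0.511%) among expressed genes. Higher genes thus outnumbered lower ones at that p with and without the fold limit, and lower ones were in excess under 0.05. The 22 genes were high in mice 1 and 4 above all. Their median difference from the old mean was 1.12 in old-OSKM mouse 1, 0.43 in mouse 2, 0.35 in mouse 3 and 1.20 in mouse 4, and young mouse 4, untreated, reached 1.07 with values above all old mice in 22 of the 22. All 22 kept a positive difference without mice 1 and 4, with a median of 0.41, and Cdo1 alone was still called. Old-OSKM mice 2 and 3 and the same old mice had helped to choose these 22, so this sign is no separate support. Leaving out mouse 1 kept 1 of the 22 (Pltp) and leaving out mouse 4 kept 2 (Pltp and Cdo1). Counts of expressed genes called higher and lower were 2 and 2 without mouse 1, 79 and 7 without mouse 2, 64 and 5 without mouse 3, and 2 and 12 without mouse 4. Without both mice 1 and 4 they were 1 and 4, and the 4 lower were Rab6b, Meg3, Snora78 and Snord22, named after their values were seen. Leaving out an untreated mouse gave 13 called expressed genes (without old mouse 1), 14 (old 2), 9 (old 3), 25 (old 4), 12 (old 5), 14 (young 1), 14 (young 2), 21 (young 3) and 32 (young 4).

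**Figure D2:**
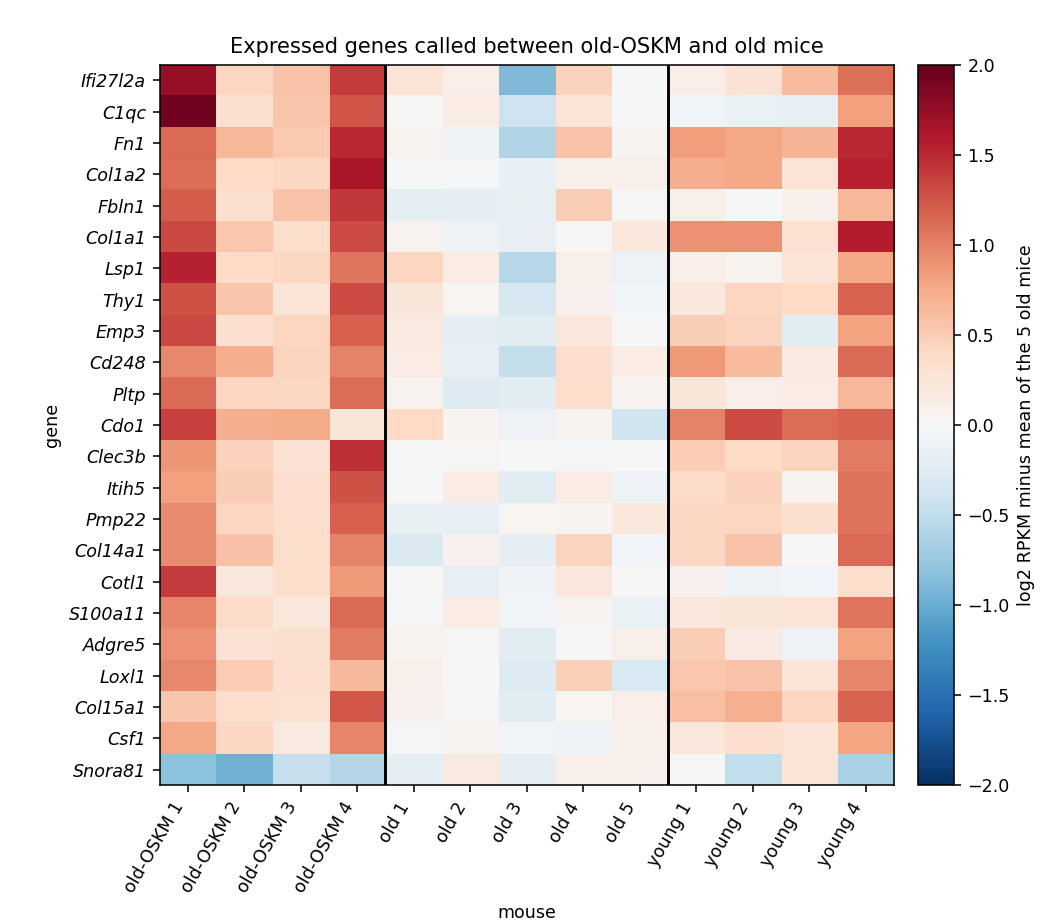
Difference of each mouse from the mean of the 5 old mice, on the log2 RPKM scale, for the 23 expressed genes called between old-OSKM and old mice, with genes in lines, mice in columns and colour for the difference. The columns of old-OSKM mice 1 and 4 and of young mouse 4 are the strongest, with medians of 1.12, 1.20 and 1.07 over the 22 higher genes.

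Fibrillar collagens and other collagens were the group with the most called members. Of 38 collagen genes listed, 13 were expressed. All 13 had a positive difference, 11 had a raw p under 0.05, and the median was 0.60. Called higher were Col1a1, Col1a2, Col14a1 and Col15a1, and below the expressed level also Col12a1 and Col23a1. Col1a1 (Entrez 12842, chromosome 11 of mm10 from 94936224 to 94953042), a chain of type I collagen, had log2 RPKM values of 2.39, 1.60, 1.42 and 2.37 in old-OSKM mice 1 to 4 and 1.13, 0.96, 0.90, 1.06 and 1.27 in old mice 1 to 5. No value of one group reached into the other, and mice 1 and 4 were the highest. The means were 1.94 ± 0.51 (SD, n = 4) and 1.06 ± 0.15 (SD, n = 5). The difference was 0.88 (standard error 0.26, limma adjusted p = 0.547). Col1a2, the other chain of the same trimer, gave 2.31, 1.58, 1.60 and 2.82 against 1.19, 1.15, 1.02, 1.29 and 1.30, again without overlap and with mouse 4 highest. Col15a1, a basement membrane collagen, had 1.46, 1.26, 1.21 and 2.16 against 0.99, 0.89, 0.69, 0.95 and 1.04, a difference of 0.61 (standard error 0.20). Col18a1, of the same subfamily, also did not overlap between the groups, with a difference of 0.57 just under the fold limit (standard error 0.17, raw p under 0.01).

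The median difference of the 13 expressed collagens was 0.66 in old-OSKM mouse 1, 0.35 in mouse 2, 0.23 in mouse 3 and 1.24 in mouse 4. Mice 2 and 3 thus lay above the old mean too, at a fraction of the size seen in mouse 4. With mice 1 and 4 left out, 12 of the 13 were still positive with a median of 0.29, but none of them had a raw p under 0.05, and Col1a1 was at 0.44 (raw p not under 0.05). Col12a1, at low level, was called also without these mice, with 0.89 (raw p under 0.01) against 1.12 with all. Its value was -4.15 in both old mouse 1 and old mouse 3, so the size of its difference is uncertain. In bulk RNA, more cells of a type and more RNA per cell cannot be told apart, which holds for every list below.

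Non-collagen matrix genes and fibroblast markers were higher in the old-OSKM group too. Of 45 genes for matrix proteins and their enzymes, 28 were expressed, 26 had a positive difference, 15 had a raw p under 0.05, all higher, and the median was 0.44. Fn1, Fbln1 and Loxl1 were called higher. Fn1, the fibronectin that cells attach to, had 2.43, 1.98, 1.82 and 2.81 in the old-OSKM mice and 1.37, 1.23, 0.70, 1.87 and 1.35 in the old mice. Old mouse 4 lay within the range of the old-OSKM mice, above mouse 3. The difference was 0.95 (standard error 0.26, raw p under 0.01 in limma), and 0.59 (raw p not under 0.05) without mice 1 and 4. Fbln1, fibulin 1 of elastic fibres and basement membranes, differed by 0.88, and Loxl1, an enzyme that cross-links elastin, by 0.62. Of 17 fibroblast and stellate markers 15 were expressed, 14 of them with a positive difference, 10 with a raw p under 0.05, and the median was 0.67. Col1a1, Col1a2 and Thy1 were the expressed ones called. Thy1, a surface glycoprotein of fibroblasts and T cells, had 1.13, 0.41, 0.11 and 1.15 against 0.09, -0.11, -0.46, -0.06 and -0.20, so mouse 3 was only just above old mouse 1. Postn, a matrix protein of activated fibroblasts, was called higher below the expressed level, with a difference of 0.92 (standard error 0.26).

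The summed RPKM of the fibroblast and stellate markers was 84.5, 59.9, 54.4 and 147 in old-OSKM mice 1 to 4 and 43.0 to 54.7 in old mice. Mouse 3 fell within the old range and the other 3 lay above it. In the untreated young mice the sum ran from 57.1 to 106. The list kept a positive median of 0.25 without mice 1 and 4, with none of the 15 genes at a raw p under 0.05, and the matrix list kept 0.12 with 1 of 28.

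Beyond these lists, the genes called higher included several known from stromal cells and leukocytes. Cd248, the endosialin of stromal fibroblasts and pericytes, had 0.96, 0.72, 0.44 and 0.98 in the old-OSKM mice and 0.15, -0.16, -0.48, 0.33 and 0.14 in the old mice, without overlap and with a difference of 0.78 (standard error 0.21). Pltp, the phospholipid transfer protein of plasma lipoproteins, had 2.04, 1.33, 1.31 and 2.03 against 0.98, 0.65, 0.67, 1.26 and 0.96, also without overlap, a difference of 0.77 (standard error 0.20), and the smallest raw p of the 22. Pltp overlaps the neighbouring gene Ctsa in the annotation, and the library kit does not mark the strand. Pmp22, a membrane protein of Schwann cells and fibroblasts, differed by 0.73. Emp3, of the same family of membrane proteins, differed by 0.82, and Lsp1, an actin-binding protein of leukocytes, by 0.86. The remaining higher genes, which the naming rule did not include and which are named after their values were seen, were Csf1, the growth factor of macrophages, Adgre5, an adhesion receptor of leukocytes, the calcium-binding S100a11, the actin-binding Cotl1, the hyaluronan-associated Itih5 and Clec3b, or tetranectin. Their differences ran from 0.59 for Csf1 to 0.77 for Clec3b, and all but Cotl1 were without overlap between the groups.

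Cdo1 was the one expressed gene called higher with and without mice 1 and 4. It encodes cysteine dioxygenase, which turns cysteine towards taurine and sulfate. Its values were 1.85, 1.21, 1.23 and 0.72 in old-OSKM mice 1 to 4 and 0.88, 0.54, 0.37, 0.53 and 0.09 in old mice 1 to 5. Here mouse 4 was the lowest old-OSKM mouse and lay below old mouse 1, while mice 2 and 3 were well above all old mice. The difference was 0.77 (standard error 0.20, limma adjusted p = 0.547), and 0.74 (raw p under 0.01) without mice 1 and 4.

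**Figure D3:**
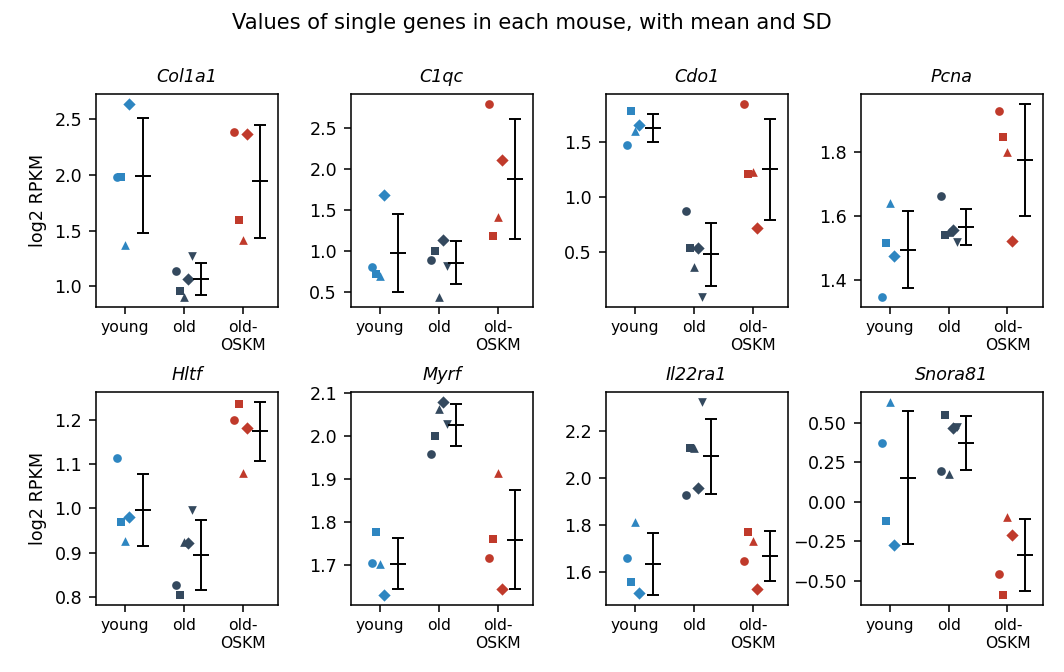
Log2 RPKM of single genes in each young, old and old-OSKM mouse, one point per mouse, with the mean and SD of each group. Col1a1 of old-OSKM mice (1.42 to 2.39) lies above all old mice (0.90 to 1.27) and within the young values, and Cdo1 of old-OSKM mouse 4 (0.72) lies below old mouse 1 (0.88).

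Macrophage genes were higher in the old-OSKM group, chiefly through mice 1 and 4. Of 17 macrophage markers 11 were expressed, all 11 had a positive difference, 10 had a raw p under 0.05, and the median was 0.83. C1qc, a chain of the complement protein C1q, was the one called. Its values were 2.79, 1.18, 1.42 and 2.11 in the old-OSKM mice and 0.89, 1.00, 0.44, 1.14 and 0.82 in the old mice, so that mouse 2 was only just above old mouse 4 and mouse 1 was far above all. The difference was 1.02 (standard error 0.32, limma adjusted p = 0.547). Lyz2, the lysozyme of myeloid cells, had 3.84, 2.47, 2.40 and 3.99 against 2.28, 2.34, 1.71, 2.49 and 1.89, a difference of 1.03 (standard error 0.35, raw p under 0.05), with mice 2 and 3 inside the old range. Csf1r, the receptor for Csf1, differed by 0.67 (standard error 0.22, raw p under 0.05).

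The median difference of the macrophage list was 1.86 in mouse 1, 0.07 in mouse 2, 0.33 in mouse 3 and 1.10 in mouse 4. In summed RPKM, mice 2 (35.1) and 3 (39.2) lay within the range of the old mice (24.5 to 41.1), and mice 1 (109) and 4 (76.6) above it. Of 24 complement genes 11 were expressed, 10 with a positive difference and a median of 0.69. Among these 7 were higher at a raw p under 0.05 and 1, Cd59a, was lower. Cd59a, which protects cells from complement, had 0.96, 0.92, 0.86 and 0.57 against 1.21, 1.09, 1.01, 1.21 and 1.21, every old-OSKM mouse below every old mouse, with a difference of -0.32 (standard error 0.10, raw p under 0.01). Of 14 genes of MHC class II presentation 7 were expressed and 5 were higher at a raw p under 0.05, none of them called. Cd74, the invariant chain of MHC class II, had 5.29, 3.40, 3.63 and 4.64 against 3.49, 3.18, 2.96, 3.65 and 3.21, with mice 2 and 3 inside the old range. Ctsl, the cathepsin in the same list that acinar cells also make, was the 1 lower gene (difference -0.20, standard error 0.07, raw p under 0.05). When mice 1 and 4 were left out, the medians were 0.24 for macrophage markers, 0.17 for complement and 0.17 for MHC class II. None of the macrophage or MHC class II genes then had a raw p under 0.05, and in the complement list Cd59a was the only one (-0.26, raw p under 0.05).

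Interferon-stimulated genes were highest in old-OSKM mouse 1. Promoters are shown for 3 of them, because such genes share a recognised response element with a core of paired GAAA repeats. The sequences are the 250 bases before a transcript start listed in RefSeq (GRCm38.p6, the assembly of mm10), read 5′ to 3′ on the strand of the gene. Capitals mark each match to GAAA, any 2 bases and GAAA again, or to its reverse complement on the other strand, TTTC, any 2 bases and TTTC.

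Apol9a: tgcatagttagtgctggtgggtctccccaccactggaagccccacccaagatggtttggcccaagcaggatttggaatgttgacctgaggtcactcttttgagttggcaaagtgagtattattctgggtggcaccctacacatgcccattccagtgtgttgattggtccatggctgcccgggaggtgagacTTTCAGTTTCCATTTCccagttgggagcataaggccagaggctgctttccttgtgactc

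Isg15: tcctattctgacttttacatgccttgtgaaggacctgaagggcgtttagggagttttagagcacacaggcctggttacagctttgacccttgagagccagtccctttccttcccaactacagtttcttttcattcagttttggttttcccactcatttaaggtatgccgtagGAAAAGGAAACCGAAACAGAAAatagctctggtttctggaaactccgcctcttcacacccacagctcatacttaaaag

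Oasl2: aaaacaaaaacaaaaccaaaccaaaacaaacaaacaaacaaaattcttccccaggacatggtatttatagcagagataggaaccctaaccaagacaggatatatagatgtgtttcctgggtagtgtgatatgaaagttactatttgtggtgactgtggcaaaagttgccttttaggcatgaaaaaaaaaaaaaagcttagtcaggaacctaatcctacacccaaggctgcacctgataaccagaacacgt

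The first lies at chr15:77411081-77411330 on the minus strand and is the first of 2 promoters listed for Apol9a, with 2 overlapping matches. The Isg15 promoter, at chr4:156200819-156201068 on the minus strand, holds 3 matches that overlap each other, and that of Oasl2, at chr5:114896684-114896933 on the plus strand, holds 0. The Oasl2 gene is annotated from 114896926, so the last bases of its stretch lie within the gene. Among 32851 promoters of this length, 978 (2.98%) held at least 1 match, as did 14 of the 30 promoters of the interferon list (46.7%). A match describes these letters only.

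Of 36 interferon-stimulated genes 13 were expressed. All 13 had a positive difference, 5 had a raw p under 0.05, and the median was 0.57. None of the 13 was called, and Oasl2 was called higher below the expressed level. Psmb8, among the 13, had a mean of 0.76 in old-OSKM, -0.06 in old and -0.21 in young mice. It thus counts as expressed only through the old-OSKM mice. Irf1, a transcription factor induced by interferon, had 2.00, 1.19, 1.04 and 1.62 in the old-OSKM mice and 0.92, 0.86, 0.74, 0.93 and 1.03 in the old mice, without overlap, and a difference of 0.57 (standard error 0.16, raw p under 0.01 in limma). Stat2, which carries the type I interferon signal to the nucleus, had 1.15, 0.15, 0.49 and 0.41 against 0.10, 0.09, -0.09, 0.06 and 0.14, with mouse 2 at the very edge of the old range. Oasl2, of the oligoadenylate synthetase family, had 1.04, -0.60, -0.08 and 0.38 against -0.77, -1.09, -1.52, -0.33 and -0.72, a difference of 1.07 (standard error 0.33). Mice 1, 3 and 4 were above all old mice, and mouse 2 lay below old mouse 4.

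Among all genes with a mean log2 RPKM from -2 to 0, Apol9a, an apolipoprotein L induced by interferon, had the largest difference of those called. Its values were 0.52, -2.03, -0.46 and -0.63 in the old-OSKM mice and -1.66, -1.87, -3.17, -2.42 and -3.19 in the old mice, and mouse 2 was at the level of the old mice. The difference was 1.81 (standard error 0.46, limma adjusted p = 0.547). Apol9b is nearly identical to it, and Ifi27l2b is close to Ifi27l2a, so how reads were divided within each pair is uncertain. Ifi27l2a had 1.80, 0.50, 0.64 and 1.46 against 0.33, 0.20, -0.82, 0.52 and 0.07, the largest difference among expressed called genes (1.04, standard error 0.34, raw p under 0.01), with mouse 2 below old mouse 4. Isg15, the ubiquitin-like modifier induced by interferon and named after its values were seen, had 0.59, -1.01, -1.08 and -0.50 against -0.92, -1.76, -1.56, -0.87 and -0.84, which did not pass (standard error 0.33, raw p not under 0.05). The median difference of the interferon list was 1.52 in mouse 1, 0.09 in mouse 2, 0.40 in mouse 3 and 0.35 in mouse 4. Macrophage markers were also highest in mouse 1 (summed RPKM 109), as were T cell markers (14.2), and their part in this result was not tested. Without mice 1 and 4 the list had a median of 0.21, with 12 of 13 positive and 2 higher at a raw p under 0.05. Of all expressed genes 1.76% were higher at that p in that fit. Chemokine genes were few: of 32 listed 5 were expressed, with 2 higher (Ccl6, 0.78, and Cxcl12, 0.39) and 1 lower (Ccl27a, -0.36) at a raw p under 0.05, none called. In the proteasome list the 2 genes higher at that level were Psme1 (0.41) and Psme2 (0.42), the interferon-induced activator subunits, both highest in mouse 1. The median over its 35 genes was -0.01.

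**Figure D4:**
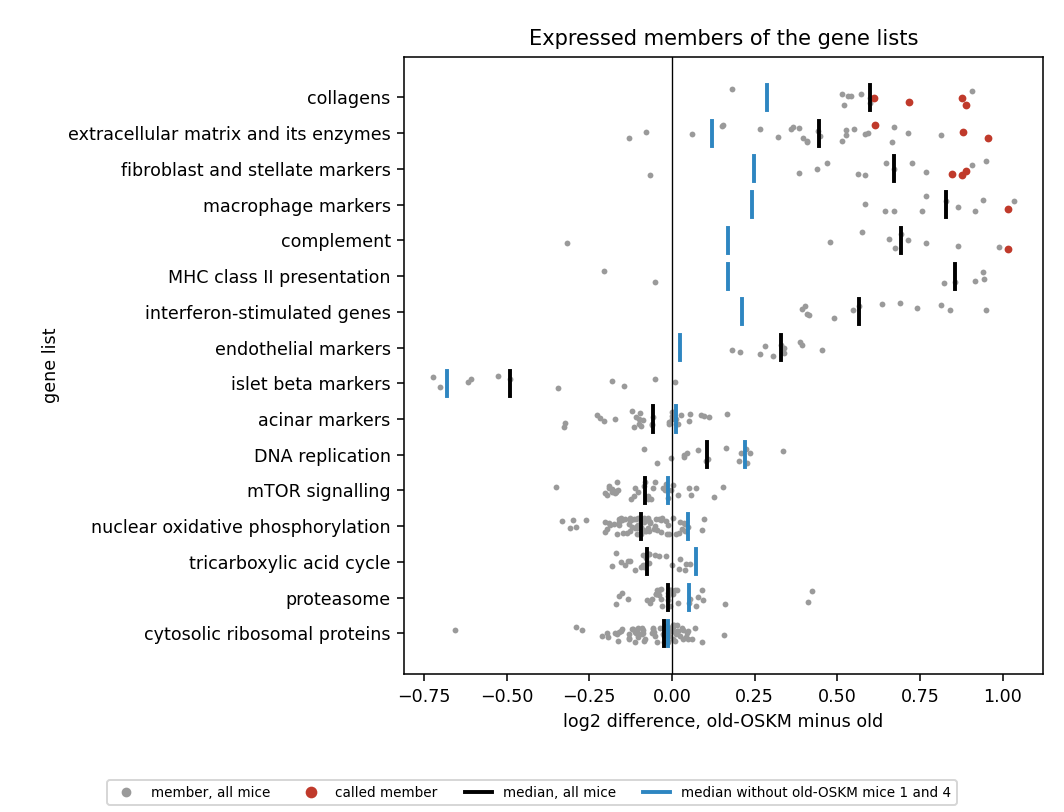
Difference between old-OSKM and old mice, on the log2 RPKM scale, of each expressed member of the gene lists, one point per gene, with the median of each list. Collagens (median 0.60), fibroblast markers (0.67) and macrophage markers (0.83) lie to the right of 0, while the 75 genes of oxidative phosphorylation (-0.09) lie close to it.

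Islet genes differed strongly between single mice, and no expressed beta cell marker passed between the groups. Of 16 beta cell markers 11 were expressed, with a median of -0.49, 1 positive, and none at a raw p under 0.05. Pcsk2, a convertase that processes hormone precursors, had -0.42, 0.96, 0.54 and 2.18 in the old-OSKM mice and 0.99, 1.13, 1.99, 1.42 and 1.64 in the old mice: mouse 1 was the lowest of the 9 and mouse 4 the highest. Scg2, a granin of endocrine granules, had 0.70, 1.75, 1.12 and 3.23 against 1.97, 2.36, 2.90, 2.38 and 3.01, with the same order. The list medians were -1.64, -0.47, -0.89 and 0.70 in old-OSKM mice 1 to 4. So 3 of the 4 old-OSKM mice were below the old mean in most of these genes, and mouse 4 was above it. Without mouse 4, 7 of the 11 beta cell markers were lower at a raw p under 0.05 and 2 were called lower, with a median of -1.07. In that fit 367 of all expressed genes (4.36%) were lower at that p and 12 were called lower. None of the 11 beta cell markers reached a raw p under 0.05 without mice 1 and 4 (median -0.68). Alpha, delta and PP cell markers had a median of -0.49 over 9 expressed genes and were ordered alike (-1.20, -0.47, -0.73 and 0.98). None of the 9 had a raw p under 0.05 with all mice. Without mouse 4, 4 of them were lower at that level and 2 were called lower (median -0.91), and without mouse 3, 1 was higher. Without mice 1 and 4, 2 of the 9 were lower at a raw p under 0.05: Scg2 (-1.09) and Sst, the hormone somatostatin of delta cells, named after its values were seen (-0.81). Of all expressed genes 2.01% were lower at that p in that fit. Below the expressed level, Insm1, a transcription factor of endocrine cells, was called lower with -2.30, -2.05, -2.72 and -1.11 against -1.20, -0.90, -0.42, -0.91 and -0.50, and mouse 4 was inside the old range. Its difference was -1.26 (standard error 0.38, raw p under 0.01 in limma), and -1.60 (raw p under 0.01) without mice 1 and 4. Ffar1, a fatty acid receptor of beta cells, was called lower as well, with -3.02, -1.84, -2.14 and -2.35 against -1.75, -1.66, -0.92, -0.89 and -1.14 and no overlap, mouse 4 included.

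Among the other cell types, endothelial markers had a positive difference in all 11 expressed genes (median 0.33) with none at a raw p under 0.05. Their medians were 0.19, 0.06, 0.02 and 1.12 in old-OSKM mice 1 to 4, with mouse 4 far above the rest, and without mice 1 and 4 the median was 0.03. Kdr, a receptor for VEGF, had 1.22, 1.19, 1.26 and 2.28 against 1.06, 1.10, 0.94, 1.11 and 0.93, the 1 gene of the list whose groups did not overlap. Duct markers had a median of 0.07 over 13 genes, with Prom1 lower at -0.15 (standard error 0.06, raw p under 0.05). T cell markers (2 of 19 expressed, median 0.08) and B and plasma cell markers (4 of 18, median -0.01) had none at a raw p under 0.05. Adipocyte markers had a median of 0.03 over 7 expressed genes. Plin1, which coats the lipid droplets of fat cells, was called higher below that level, with -0.15, -2.69, -2.63 and -1.46 against -3.39, -3.44, -3.39, -2.67 and -3.41, so that mouse 1 and then mouse 4 stood out. Apart from old mouse 4, the old values lay between -3.44 and -3.39, so the size of the Plin1 difference is uncertain. The 6 expressed Reg genes, secreted proteins of the stressed exocrine pancreas, had a median of -0.53 and none at a raw p under 0.05. Reg3b ran from 0.50 to 3.96 in old-OSKM mice and from 2.46 to 6.08 in old mice, a wide spread in both.

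Acinar enzymes hardly differed in these normalized values. Of the 33 acinar markers 13 had a positive difference, the median was -0.06, and differences ran from -0.33 to 0.17. Prss1, a trypsinogen, was the 1 gene with a raw p under 0.05, with 5.54, 5.34, 5.38 and 5.18 in the old-OSKM mice and 5.56, 5.43, 5.50, 5.75 and 5.58 in the old mice. The groups overlapped through mouse 1, and the difference was -0.21 (standard error 0.09, raw p under 0.05 in limma). Without mice 1 and 4 the list had a median of 0.01. Quantile normalization gave every mouse nearly the same set of highest values, and acinar enzymes take up many of these. Cela3b, an elastase, had the same 9.81 in old-OSKM mouse 3 and in old mice 1, 3 and 4. A change shared by these enzymes could therefore be hidden, and small differences do not show equal expression.

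Genes of DNA replication were slightly higher in mice 1, 2 and 3 and not in mouse 4. Of 41 listed 16 were expressed, 13 with a positive difference, a median of 0.11 and 3 at a raw p under 0.05, none of these called. Pcna, the sliding clamp of the replication fork, had 1.93, 1.85, 1.80 and 1.52 in the old-OSKM mice and 1.66, 1.54, 1.55, 1.56 and 1.52 in the old mice. Mice 1 to 3 were above every old mouse and mouse 4 was at the bottom of the old range. Rpa1, of the single-strand binding complex, had 1.20, 1.09, 1.01 and 0.75 against 0.92, 0.71, 0.88, 0.80 and 0.58, and Rfc5, of the clamp loader, 0.29, 0.30, 0.23 and -0.13 against 0.10, -0.41, -0.12, -0.23 and -0.16, both with the same 3 mice above all old mice. The differences were 0.21 for Pcna (standard error 0.08, raw p under 0.05), 0.24 for Rpa1 (standard error 0.09, raw p under 0.05) and 0.34 for Rfc5 (standard error 0.14, raw p under 0.05), all from limma. These calls were not stable to single mice. None of the 16 had a raw p under 0.05 without mouse 1 (median 0.05), without mouse 2 (0.09) or without mouse 3 (0.11), while 6 did without mouse 4 (0.22). Without mouse 4, 2.54% of all expressed genes were higher at that p. Without mice 1 and 4 the median was 0.22 and 14 of 16 were positive. In that fit 6 of 16 were higher at a raw p under 0.05, compared with 1.76% of all expressed genes higher at that p. For Pcna the difference was then 0.26 (raw p under 0.01).

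Below the expressed level 3 further replication genes were called higher, Mcm5 of the helicase (1.02), Gins3 (0.60) and the origin-binding Orc1. For Orc1, 4 of the 5 old values lay between -4.21 and -4.18, and the fifth (-3.09) was above 3 of the 4 old-OSKM mice, so its difference is not a measured fold. Mcm5 had -0.20, -0.83, -1.40 and -1.69 against -1.48, -1.99, -2.45, -2.13 and -2.17, and mouse 4 overlapped the old mice. The repair genes Mutyh, a DNA glycosylase that removes adenine opposite oxidised guanine, and Exo1, an exonuclease of mismatch repair, were called higher as well. Low values recur among the old mice in both (3 values between -4.80 and -4.79 for Exo1, and 3 between -3.33 and -3.28 for Mutyh), so their differences are uncertain in size. Mutyh had -2.11, -1.49, -1.75 and -2.37 against -3.28, -3.33, -2.55, -2.55 and -3.30, without overlap, and a difference of 1.08 (standard error 0.24, limma adjusted p = 0.547). It was called also without mice 1 and 4 (1.38, raw p under 0.01). The 10 expressed genes of mismatch and base excision repair all had a negative difference with a median of -0.06, and none had a raw p under 0.05. Of mitotic and cell cycle genes 6 of 45 were expressed, and Kif23, a kinesin of cytokinesis, was called higher at low level (1.30), while none of the 20 genes in the list of proliferation markers was expressed.

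Among the 5 expressed genes of smallest raw p in each direction, Pltp (above) had a fold of 1.71, and the others had smaller differences, with groups that did not overlap. Hltf, a helicase-like chromatin remodeller, had 1.20, 1.23, 1.08 and 1.18 in old-OSKM mice 1 to 4 and 0.83, 0.80, 0.93, 0.92 and 1.00 in old mice 1 to 5. The groups were separate, and the old-OSKM mice lay close together, with mouse 2 the highest. The difference was 0.28 (standard error 0.06, limma adjusted p = 0.547), a fold of 1.21, and 0.26 without mice 1 and 4. Rbpj, the DNA-binding partner of Notch and a paralogue of the acinar factor Rbpjl, had 1.99, 1.77, 1.70 and 1.96 against 1.58, 1.58, 1.62, 1.61 and 1.56, again separate. Notch2, a receptor of that pathway, differed by 0.39 (standard error 0.13, raw p under 0.05), highest in mice 4 and 1. Ifitm1, an interferon-induced membrane protein, had 0.61, 0.21, 0.35 and 0.44 against 0.11, -0.18, -0.26, 0.15 and -0.11, and Tubb5, a beta tubulin, 2.74, 2.32, 2.19 and 2.35 against 2.07, 1.97, 1.97, 1.98 and 1.90. Each was without overlap, with fold changes of 1.38 and 1.34, and both had a raw p under 0.05 also without mice 1 and 4.

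In the other direction, Mier2, a chromatin regulator that binds histone deacetylases, had -0.43, -0.03, -0.13 and -0.01 in the old-OSKM mice and 0.23, 0.35, 0.36, 0.22 and 0.20 in the old mice. All 4 were below all 5, and the difference was -0.42 (standard error 0.09, limma adjusted p = 0.547), with -0.35 without mice 1 and 4. Myrf, a membrane-bound transcription factor, had 1.72, 1.76, 1.91 and 1.64 against 1.96, 2.00, 2.06, 2.08 and 2.03. Il22ra1, the receptor subunit through which acinar cells respond to interleukin 22, had 1.64, 1.77, 1.73 and 1.53 against 1.93, 2.13, 2.13, 1.96 and 2.32, a difference of -0.43 (standard error 0.09, raw p under 0.01). St3gal3, a sialyltransferase, differed by -0.36 and Tex30 by -0.33. None of these 5 overlapped between the groups, and each had a raw p under 0.05 without mice 1 and 4. These genes, like the higher ones above, were chosen by their p in the same mice, so neither result is separate support. Without mice 1 and 4, 1.76% of all expressed genes were higher and 2.01% lower at that p.

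Snora81, the expressed gene called lower, had -0.46, -0.59, -0.09 and -0.21 in the old-OSKM mice and 0.20, 0.55, 0.18, 0.47 and 0.47 in the old mice. The groups were separate, and the difference was -0.71 (standard error 0.18, limma adjusted p = 0.547), and -0.71 (raw p under 0.05) without mice 1 and 4. It lies inside the gene Eif4a2 (chromosome 16 of mm10 from 23110770 to 23110933), so reads of the host transcript can be counted with it.

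Senescence and stress genes gave no list with a called expressed member. Of 27 genes of senescence and the p53 pathway 13 were expressed, with a median of -0.08 and 3 lower at a raw p under 0.05. Cdkn1a, the cyclin-dependent kinase inhibitor p21, had 1.82, 1.99, 1.09 and 0.21 in the old-OSKM mice and 1.71, 1.92, 2.00, 2.28 and 2.33 in the old mice. Mouse 4 was far below the rest, mouse 3 was below all old mice too and mice 1 and 2 were within the old range, and the difference was -0.77 (standard error 0.35, raw p under 0.05 in limma). It was -0.50 without mice 1 and 4, -0.41 without mouse 4 and -0.71 without mouse 3, and its raw p was then not under 0.05 in any of these fits. Trp53inp1, another p53 target, differed by -0.37 (standard error 0.12, raw p under 0.05), and by -0.50 (raw p under 0.01) without mice 1 and 4. Glb1, the lysosomal beta-galactosidase, differed by -0.33 and by -0.07 without them, and was lowest in mouse 4. The median of the list was 0.02 without mice 1 and 4. Immediate early genes, which stress and growth factors induce within minutes, had 13 of 25 expressed, 11 of them with a positive difference, and a median of 0.13. Junb, a subunit of the AP-1 transcription factor, had 0.56, 0.19, 0.21 and 0.66 against -0.43, 0.21, -0.03, 0.03 and -0.08 and was the 1 gene of that list with a raw p under 0.05, with a difference of 0.47 (standard error 0.19), and 0.26 (raw p not under 0.05) without mice 1 and 4. The list median was then 0.02. Dnajb1, a cochaperone of Hsp70, had 0.41, 0.33, 0.22 and 0.11 against 0.52, 0.44, 0.71, 0.48 and 0.73 without overlap, a difference of -0.31 (standard error 0.09, raw p under 0.01), while the 20 expressed heat shock chaperones as a list had a median of 0.00. The 36 expressed chaperones and sensors of the endoplasmic reticulum also had a median of 0.00, and none had a raw p under 0.05.

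Genes of energy metabolism were slightly lower as a group, and this rested on mouse 4. The 75 genes of oxidative phosphorylation had a median of -0.09, with 11 positive and 2 lower at a raw p under 0.05. Their median in old-OSKM mice 1 to 4 was 0.01, 0.04, 0.06 and -0.43. Without mice 1 and 4 the median was 0.05, 55 of the 75 were positive, and 6 were higher at a raw p under 0.05. Of all expressed genes 1.76% were higher at that p in that fit. The direction of this list thus turned on mouse 4, in which acinar markers were also the lowest (summed RPKM 20554). The 26 expressed genes of the tricarboxylic acid cycle went from a median of -0.08 to 0.07 when mice 1 and 4 were left out, and those of fatty acid oxidation from -0.07 to 0.07. Ribosomal proteins had a median of -0.02 over 76 genes, with 9 lower and 1 higher at a raw p under 0.05. Rpl17 had 5.19, 5.19, 5.22 and 5.02 against 5.34, 5.28, 5.29, 5.26 and 5.38, every old-OSKM mouse below every old mouse by a small margin. Of 40 genes of mTOR signalling 35 were expressed, 7 with a positive difference, a median of -0.08 and 5 lower at a raw p under 0.05. Ulk1, the kinase that starts autophagy and is held in check by mTOR, was among these (-0.20, standard error 0.07, raw p under 0.05) and its groups did not overlap. Without mice 1 and 4 none of the 35 had a raw p under 0.05 and the median was -0.01. In the list of insulin and IGF signalling (median -0.05) the 3 higher genes at a raw p under 0.05 were the binding proteins Igfbp4, Igfbp5 and Igfbp6, which stromal cells make. Igfbp6 had 1.34, 0.63, 0.84 and 2.58 against 0.33, 0.28, -0.04, 0.51 and 0.63, with mice 4 and 1 highest and mouse 2 level with old mouse 5.

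Most called genes were at low levels. Of the 14956 genes with a mean log2 RPKM of 0 or less, 153 (1.02%) were called, 114 higher (0.762%) and 39 lower (0.261%). At or below -2 there were 79 higher and 17 lower, and in 15 of the 79 the old mice had a mean below -1 and lay within 0.1 of each other, so that the difference was taken from a nearly constant value. Hoxd9, a homeobox gene, was the 1 gene with an adjusted p under 0.05 (0.0236 in limma), with -3.24, -2.69, -2.64 and -2.97 in the old-OSKM mice and -3.82, -3.87, -3.81, -3.83 and -3.83 in the old mice. Its old values are of that nearly constant kind, so its difference of 0.95 is not a measured fold. Of better measured genes from -2 to 0, Pygl, the liver form of glycogen phosphorylase, had -0.40, -1.20, -0.71 and -0.56 against -2.08, -1.79, -1.92, -1.50 and -1.41, without overlap. Its difference was 1.02 (standard error 0.21, limma adjusted p = 0.547), and 0.78 (raw p under 0.05) without mice 1 and 4. Mmp7, a matrix metalloprotease of epithelia, had 0.76, -1.01, -1.69 and 0.24 against -2.17, -1.41, -2.15, -2.92 and -1.49, with mice 1 and 4 high, mouse 2 above the old range and mouse 3 within it. Stard4, a carrier of cholesterol between membranes, was called higher without overlap (0.99), as was Cd38, an enzyme that consumes NAD (0.65). Sfrp2, a secreted Wnt modulator with a mean below -2, was called higher without overlap too (1.13). Called lower were Alox8, a lipoxygenase (-1.06), Pipox, a peroxisomal oxidase of pipecolic acid and sarcosine (-1.01), and A730063M14Rik (-1.03), which overlaps the gene Tspan31. Alox8 and A730063M14Rik did not overlap between the groups, and for Pipox old mouse 4 lay below old-OSKM mice 2 and 3.

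**Figure D5:**
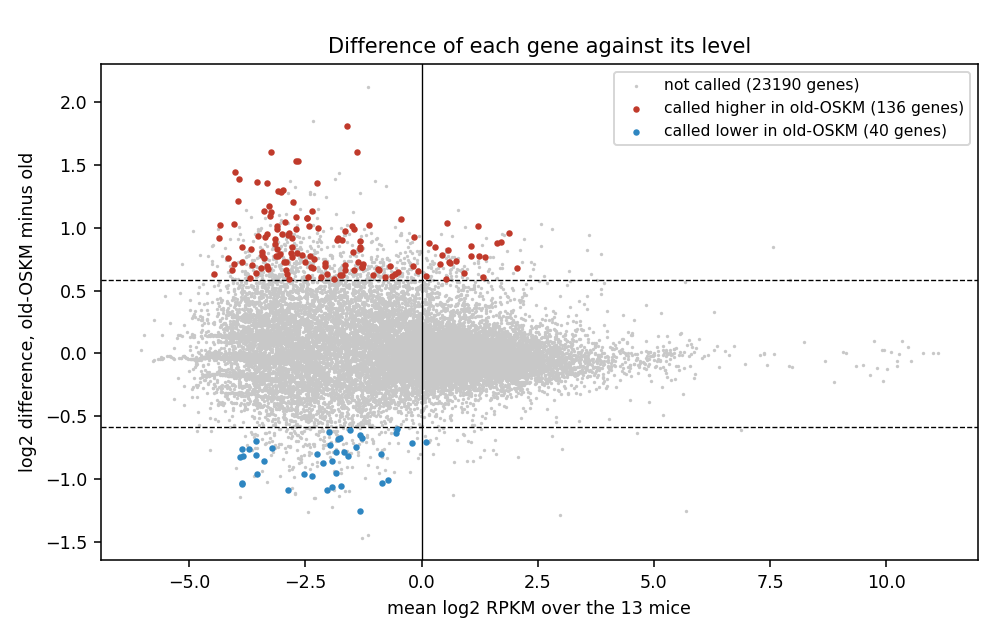
Difference between old-OSKM and old mice (log2 RPKM) of every gene against its mean log2 RPKM over the 13 mice, with called genes in colour. Called genes crowd at low levels, where 153 of 14956 genes at or below 0 were called, against 23 of the 8410 above 0.

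The young mice give the level before aging for the same genes. Comparisons with young mice share the old mice with those above, so the values are set side by side only. For Col1a1 the mean log2 RPKM was 1.99 in young, 1.94 in old-OSKM and 1.06 in old mice, and for Fn1 it was 2.25, 2.26 and 1.30. Young mouse 4 raised both young means: it had 2.64 for Col1a1 (other young mice 1.37 to 1.98) and 2.80 for Fn1 (others 1.99 to 2.14). Cdo1 was at 1.63 in young mice, 1.25 in old-OSKM mice and 0.48 in old mice. Myrf was at 1.70, 1.76 and 2.03, and Il22ra1 at 1.63, 1.67 and 2.09. For C1qc, however, the young mean of 0.98 was close to the old mean of 0.86 and the old-OSKM mean of 1.87 was above both, and Irf1 was ordered alike (1.14, 1.46 and 0.90 in young, old-OSKM and old mice).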

How the data were processed

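RNA sequencing of pancreas from 13 mice was analysed from the table of expression values. As the deposited notes and the methods describe, the authors aligned reads to mm10 with STAR 2.3.0e, excluded reads with 5 or more locations, estimated RPKM per isoform with Casper, summed them per Entrez gene, and deposited them on the log2 scale after quantile normalization. The deposited log2 values were used without a pseudocount or filter. The study's correction by total reads is not in them, and neither counts nor totals per sample were given, so depth and counting error are unknown. Symbols and positions of 23273 of the 23366 genes came from the GRCm38.p6 annotation by Entrez number. Groups were taken from the sample labels.

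One linear model of the 3 groups, with no covariate, was fitted per gene by lmFit and moderated by eBayes at their default settings (limma 3.58.1, R 4.3.3), and the two-sided contrast of old-OSKM minus old mice was read from that fit, with Benjamini-Hochberg adjustment over all genes. The genes and lists were chosen with earlier results of these data known, and lists are therefore described by counts and medians. Named genes are the cassette factors and Pparg, the expressed called genes of largest difference, the 5 expressed genes of smallest raw p in each direction, the 5 called genes of largest difference in each direction with a mean from -2 to 0, called members of each list with its 3 expressed members of smallest raw p, and genes with an adjusted p under 0.05. Some genes that the rule names are left undiscussed, and genes outside it are marked in the text. Alternatives changed the normalization, filter, pseudocount, variance model, covariates, call rule and mice. The fit was tested on simulated data. Tables and figures were made with Python 3.11.15, pandas 2.3.3 and matplotlib 3.10.9.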

Additional observations from a re-analysis of the deposited data

Results flagged for a closer look

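In 261 groups of 4 or 5 mice (values of named genes and sums of gene lists, with the young mice included for liver genes only), 19 had one mouse far from the others of its group by Dixon's 95% criterion, and chance gives this in about 1 in 20 groups. Old-OSKM mouse 4 was the distant one for Kdr (log2 RPKM 2.28, next 1.26) and Rpl17 (5.02, next 5.19), and for the summed RPKM of acinar markers (20554, next 23268), duct markers (230, next 257), endothelial markers (54.6, next 28.7), oxidative phosphorylation (466, next 625) and insulin and IGF signalling (128, next 98.8). Old-OSKM mouse 1 was the distant one for T cell markers (14.2, next 5.93) and interferon-stimulated genes (133, next 58.9). Old-OSKM mouse 3 was low for Pou5f1 (-2.06, next -0.80).

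Among untreated old mice, mouse 5 was high for Alox8 (-0.70, next -1.30) and low for Col23a1 (-3.43, next -2.67) and Ccl27a (0.29, next 0.51). Old mouse 4 was high for Plin1 (-2.67, next -3.39) and liver genes (summed RPKM 20.7, next 12.5). Old mouse 1 was high for Pcna (1.66, next 1.56) and Orc1 (-3.09, next -4.18), and old mouse 2 for Cd38 (-0.55, next -0.82). Among the young mice, mouse 3 was high for liver genes (152, next 12.5).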

How the results depend on the processing

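The count of called genes depended on the mice and on the treatment of low values more than on normalization. Over all genes, 176 were called. There were 35 with expressed genes alone in the fit, 104 with genes above a mean of -2, 77 and 2 with pseudocounts of 0.1 and 1, 90 (51 higher, 39 lower) with the mean z-score over all genes of each mouse as a covariate, and 80 (31 higher, 49 lower) without old-OSKM mice 1 and 4. Other call rules gave 1 (adjusted p under 0.05), 1885 (raw p under 0.05) and 404 (groups without overlap). Leaving out each mouse in turn gave 94 to 338, with 94 without old-OSKM mouse 1, 338 without mouse 2 and 284 without mouse 3, and 88 higher and 93 lower without mouse 4. Of expressed genes, 23 were called, compared with 35, 4 (1 higher, 3 lower), 5 and 2 under the expressed-gene fit, the z-score covariate, the omission of mice 1 and 4, and a pseudocount of 1. The other call rules gave 0, 688 and 177, and leaving out single mice 4 to 86. Repeated quantile normalization, centring on the median and the trend and robust variance model kept both counts within 1.5 times, as did the run of sample numbers as a covariate (123 higher and 47 lower over all genes).

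Signs turned for cassette factors, none of which passed the test with all mice. Klf4 was at -0.18 with the z-score covariate, -0.16 without old-OSKM mice 1 and 4, and from -0.18 to 0.19 with single mice left out. Pou5f1 was at -0.12 and -0.24 under the first 2 of these and from -0.050 to 0.44 with single mice left out, where the other negative value was -0.02. Myc ran from -0.25 to 0.012 and Sox2 from -0.12 to 0.24 with single mice left out, and negative values for Sox2 were -0.09 without old mouse 1, -0.09 without old mouse 3 and -0.12 without old-OSKM mouse 2. Klf4 was at -0.01 without old mouse 1 and -0.18 without old-OSKM mouse 4. Of the other fits of 95 named genes, 1835 kept direction and call, 368 lost the call and 27 gained it. Of 840 fits of list medians, 4 moved by more than the spread between mice: with mice 1 and 4 left out, MHC class II fell to 0.17, islet transcription factors turned to 0.03 and mismatch and base excision repair to 0.04, and with the z-score covariate islet transcription factors turned to 0.02. The causes were not tested. No paired analysis was possible because the labels give the mice no shared replicate numbers. With 4 against 5 mice and no counts, a p that misses the threshold does not show equal expression.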
